A study of Ambystoma mexicanum with 60 samples.

Results

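Section C is the middle slab of the axolotl (Ambystoma mexicanum) egg, between the pigmented animal hemisphere and the yolky vegetal hemisphere. Its 6 libraries of the first cleavages, 3 from 1-cell embryos and 3 from 4-cell embryos, were taken by their labels out of 59 libraries analysed in all. The whole data set covers 12 naturally laid embryos, 3 at each of the 1-cell, 4-cell, 64-cell and 1K-cell stages, each cut along its animal-vegetal axis into 5 sections from A (extreme animal) to E (extreme vegetal), with total RNA depleted of ribosomal RNA and sequenced from each section (TOMO-seq). The 2 groups compared here are untreated and differ by stage only in the labels: the fertilised egg before cleavage, source of the 1-cell libraries, and the embryo of 4 blastomeres, source of the 4-cell libraries. Every library is a slab of 1 embryo, so n = 3 embryos per group. The embryos came from 2 independent experiments with different parents, and the sources used here do not say which embryo belongs to which, so that stage and parents cannot be told apart. Libraries were made from a fixed amount of total RNA and their counts were scaled to each other, so that values are relative levels and not amounts of RNA per slab.

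The fully grown amphibian egg carries its mRNA as a maternal store that is translated, degraded or moved before the embryo's own genome is switched on. During cleavage this store is divided among blastomeres without growth. In the eggs of anuran amphibians such as Xenopus, maternal RNAs of the germ plasm, among them that of *nanos1*, lie at the vegetal cortex, whereas germ plasm is not known from the eggs of urodeles such as the axolotl.

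The libraries of section C held 4770618, 3163745 and 3791615 counts in 1-cell embryos, and 3881582, 3100899 and 2362555 in 4-cell embryos. Of 28909 transcript models, 26006, 25387 and 25642 had at least 1 count at the 1-cell stage, against 25365, 25149 and 24661 at the 4-cell stage. Every 4-cell library thus held fewer detected models than every 1-cell library (exact two-sided permutation test, p = 0.1, the smallest that 3 against 3 allows). The separation was narrow, with 25387 in the lowest 1-cell library and 25365 in the highest 4-cell library. Within each stage, libraries with more counts held more detected models, and the part of depth in the difference was not tested. The share of counts in the 100 most abundant transcripts was 12.5% ± 2.37 (SD, n = 3) at the 1-cell stage and 13.7% ± 2.62 (SD, n = 3) at the 4-cell stage, an overlap of both groups (exact two-sided permutation p = 0.6). Egg and oocyte genes were present: 11 of 14 were measured, among them *btg4*, an oocyte deadenylation factor, at mean normalised counts of 599 and 596 at the 1-cell and 4-cell stages, and *mos*, the kinase that holds the egg in meiotic arrest, at 85.7 and 88.6. Not all were level. The main model of *wee2* was called lower, from a mean of 1041 to 544. Without passing the test, *zp3* went from 458 to 280 and *zar1* from 34.3 to 56.4. Of 98 symbols that mark follicle and connective tissue, blood, skin and oviduct or liver, 8 were measured. Only *ptprc*, which marks blood cells, passed the test, with 49.3, 60.2 and 61.1 normalised counts in 1-cell embryos, then 2.58, 2.1 and 0 in 4-cell embryos, and its part in any other result was not tested.

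The 1-cell libraries differed from those of the 4-cell and 64-cell stages more than these did from each other. A transcript was counted as on in one library and off in the other where one held at least 100 normalised counts and the other held 0. Among the 12 section C libraries of all 4 stages, pairs of 1-cell libraries differed in this way at 87 to 99 transcripts and pairs of 4-cell libraries at 60 to 129. Pairs of a 1-cell with a 4-cell library differed at 217 to 303, and of a 1-cell with a 64-cell library at 200 to 274. Pairs of a 4-cell with a 64-cell library differed at 48 to 145, a range that overlapped those within each stage. Pairs with a 1K-cell library differed at 295 to 364 transcripts when the other was of the 1-cell stage and at 117 to 219 when it was of the 4-cell stage, which overlaps the range of a 1-cell with a 4-cell library. Across transcripts, which are not independent replicates, the correlation of log2(normalised count + 1) was 0.859 to 0.87 between 1-cell libraries, 0.762 to 0.795 for a 1-cell paired with a 4-cell library, 0.844 to 0.89 for a 4-cell paired with a 64-cell library, and 0.771 to 0.809 for a 4-cell paired with a 1K-cell library.

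The first question was which RNAs were lost from or gained by section C between the fertilised egg and the 4-cell embryo. A total of 298 transcripts were lower and 139 were higher at the 4-cell stage, 1.03% and 0.481% of those tested. A call needed an adjusted p under 0.01 in edgeR's quasi-likelihood test, with Benjamini-Hochberg adjustment over the 28909 transcripts, and a mean above 20 normalised counts in at least 1 of both stages. Of the calls, 285 falls and 116 rises were at least 3-fold (0.986% and 0.401% of those tested). Most of these changes were very large: the median ratio of the higher to the lower mean was 56.9 among the falls and 41.8 among the rises, with 3 counts over a group in place of 0. Losses reached 0 counts in all 3 libraries of the 4-cell stage in 142 of the 298, and gains started from 0 in all 3 libraries of the 1-cell stage in 50 of the 139. In all 437 of these transcripts (1.51% of those tested) the 3 libraries of one stage lay wholly above the 3 of the other, a separation also seen in 27.1% of the 20969 transcripts above 20 normalised counts. The median log2 fold change over these 20969 transcripts was -0.04. The counts of falls and rises were much lower whichever single library was left out. Without 1-cell replicate 1, 2 or 3 the falls came to 31, 8 and 12 and the rises to 39, 11 and 18. Without 4-cell replicate 1, 2 or 3 the falls came to 82, 63 and 153 and the rises to 19, 16 and 36. In these fits the effect of a smaller group and that of the library left out cannot be told apart. DESeq2 called 1226 falls and 864 rises, among them all 437 of the transcripts above.

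**Figure D1:**
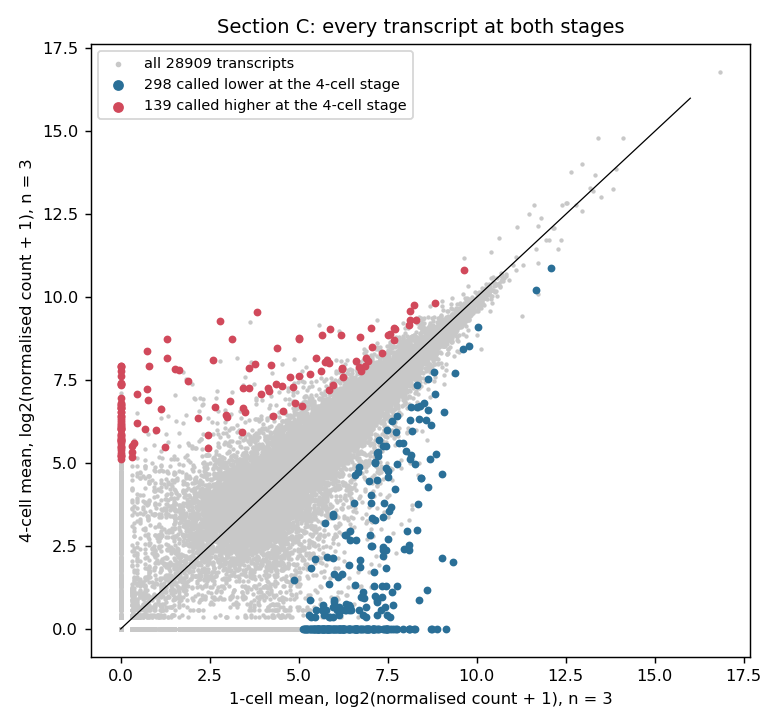
Mean normalised count of each transcript in section C at the 1-cell stage (x axis) and the 4-cell stage (y axis), both as log2(count + 1) with n = 3 libraries, and grey for all 28909 transcripts. The 298 transcripts called lower (blue) reach the x axis, at 0 counts in 4-cell embryos, in 142 cases, and the 139 called higher (red) reach the y axis in 50.

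The largest losses with a symbol were of transcripts that were well covered in every 1-cell embryo and had no count in any 4-cell embryo. A transcript of *selenon*, which encodes a selenoprotein of the endoplasmic reticulum, held 528, 538 and 618 normalised counts in the 1-cell libraries and 0 in each 4-cell library, at least 526-fold lower when 3 counts over the group stand in for 0 (adjusted p = 0.000906). A transcript of *ap2b1*, a subunit of the clathrin adaptor of endocytosis, held 410, 430 and 412 counts and then 0 in all 3, at least 391-fold lower (adjusted p = 0.000906). The transcript of *spag7* went from 447, 463 and 504 counts to 0, at least 441-fold lower (adjusted p = 0.000906). The 1-cell values of these 3 transcripts lay close together, and their estimated count was 0 in every 4-cell library. Whether reads that match them were assigned to similar models was not tested. Other losses of the same kind were of *ep400*, a chromatin-remodelling ATPase, at 471, 257 and 182 counts in the 1-cell libraries, and of *ncor1*, a nuclear receptor corepressor, at 258, 151 and 122. The remaining named losses were of *fam102b*, *ikzf4* (a zinc finger transcription factor), *ganab* (a glucosidase of glycoprotein folding), *golga1* (a Golgi coiled-coil protein), *hspa8* (the constitutive heat shock cognate chaperone), *nhsl1*, *pnp* (purine nucleoside phosphorylase), *sfxn1* (a mitochondrial serine carrier), *coq10b* (a coenzyme Q binding protein) and *tmem184b*. Their 1-cell means ran from 183 in *tmem184b* to 306 in *fam102b*, all with 0 counts at the 4-cell stage.

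The largest gains mirrored these losses. A transcript of *nacc1*, a transcriptional regulator, was at 0 in each 1-cell library and at 241, 305 and 186 normalised counts in the 4-cell libraries, at least 280-fold higher (adjusted p = 0.00265). A transcript of *selenoh*, a selenoprotein of the nucleolus, held 0 and then 273, 179 and 273 counts, at least 278-fold higher (adjusted p = 0.00252). A transcript of *tent2*, the cytoplasmic poly(A) polymerase also known as GLD2, held 0 and then 214, 229 and 145 counts, at least 225-fold higher (adjusted p = 0.00287). In these 3 cases the lowest 4-cell library stood above 100 counts and the estimated count was 0 in every 1-cell library. Transcripts of *b4galt1* (a galactosyltransferase), *cab39* (a partner of the kinase LKB1), *etv6* (an ETS factor), *eef1b2* (a translation elongation factor subunit), *pi4ka* (a phosphatidylinositol kinase), *ttc26*, *rnf167*, *rps29* (a ribosomal protein) and *cul2* (a ubiquitin ligase scaffold) also rose from 0, to means of 100.1 in *cul2* to 238 in *b4galt1*. The 3 others rose from a few counts: *dctn1*, the large dynactin subunit, from 0, 2.19 and 0 to 294, 225 and 203; another transcript of *selenon* from 0, 4.38 and 0 to 429, 494 and 348; and *cuedc2* from 0, 1.1 and 0.899 to 133, 121 and 194. Other models of *tent2* and *dctn1* were called lower. In *tent2* the mean went from 363 to 111, and in *dctn1* from 348 to 22.2 and from 49.3 to 0.48. Among transcripts without a symbol, AMEXTC_0340000039783 and AMEXTC_0340000251697 fell from means of 429 and 202 to 0, and AMEXTC_0340000019375 and AMEXTC_0340000050599 rose from 0 to 169 and 168.

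The table holds several transcript models for many symbols. Where a symbol had more than 1 model, the losses and gains were mostly those of single models within it. The 103 falls and 64 rises without a symbol could not be summed. Of the 195 falls with a symbol, 171 belonged to 162 symbols with more than 1 model, and of the 75 rises, 66 belonged to 64 such symbols. Among the called transcripts with a symbol 87.8% had a second model of the same symbol in the table, compared with 67.1% of the 13646 transcripts with a symbol above 20 normalised counts. When the counts of all models of a symbol were summed, the sum of 148 of these 171 falls moved by less than 1.5-fold, and that of 54 of the 66 rises. The median log2 fold change of the 171 falling models was -8.26, and that of their symbol sums was -0.10. For the 66 rising models the corresponding values were 4.40 and 0.08. The sum was itself called lower for 9 of the 171 and called higher for 7 of the 66. The other models of the symbol moved the opposite way in 151 of the 171 and in 59 of the 66, and their change made up for a median of 78.8% of the counts lost and 92.9% of the counts gained. How reads of similar models were shared out belongs to the counting, and whether 2 models of a symbol are isoforms, alleles or separate genes was not tested.

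In 27 symbols one transcript was called lower and another higher. None of the 27 symbol sums was called, and 26 of them changed by less than 1.5-fold. The exception was *ap2b1*, whose sum went from 461 to 288, a log2 fold change of -0.68. A full exchange was seen in *bysl*, which encodes a ribosome assembly factor. One model went from 730, 667 and 523 counts to 0, 6.29 and 2.88, and the other from 4.93, 5.47 and 7.19 to 465, 636 and 771. The sum of both was 646 at the 1-cell stage and 627 at the 4-cell stage, a log2 fold change of -0.05. In *b4galt1*, one model went from 183, 189 and 152 counts to 0 while another went from 0 to 197, 266 and 250, and the sum was 361 and 392. In *etv6* the models crossed between 127, 141 and 94.4 counts on the one side and 127, 187 and 184 on the other, with sums of 183 and 193. In *eef1b2* a model at 115, 120 and 98.9 counts fell to 3.45, 0 and 0, another rose from 0 to 147, 154 and 186, and the sums were 162 and 167. The sums of *golga1* and *selenon* were lower at the 4-cell stage, at 301 after 388 and 469.7 after 619, without passing the test (adjusted p = 0.241 and 0.202).

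**Figure D2:**
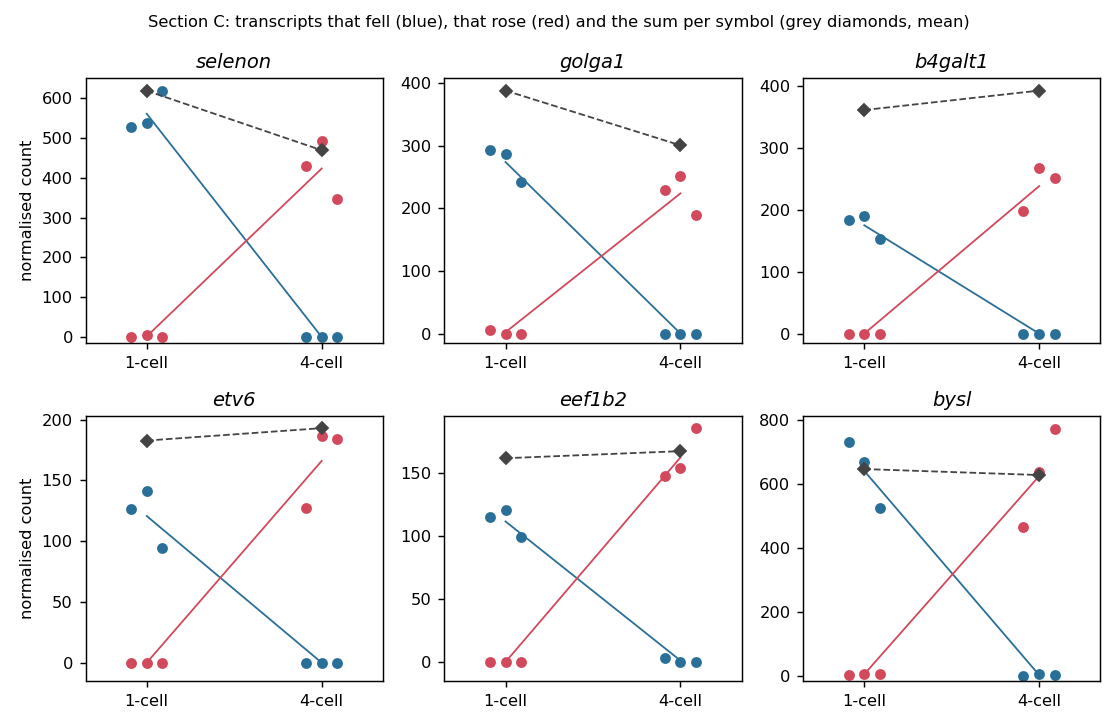
Normalised counts of the falling (blue) and rising (red) transcripts of 6 symbols in the 3 libraries of each stage, with lines through the means and grey diamonds for the mean sum of all transcripts of the symbol. In *bysl* the 2 models exchange places while the sum stays at 646 and 627.

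Summed per symbol, 134 symbols were called lower and 63 higher in section C at the 4-cell stage, or 1.46% and 0.685% of the 9194 tested. Of these, 91 of the falls and 33 of the rises were at least 3-fold. Of the 134 falls and 63 rises, 91 and 38 were of symbols with a single model in the table. For these the sum holds only the counts of that model, tested in a separate fit. In the fit over all transcripts, 24 falls and 9 rises were of symbols with a single model, so that most of the 91 and 38 were not called there. The count of falls was 76, 69, 101, 84, 83 and 76, and that of rises 45, 32, 41, 38, 35 and 28, without 1-cell replicate 1, 2 and 3 and 4-cell replicate 1, 2 and 3 in turn. A sum covers only models that carry the symbol, and 12664 of the 28909 models carry none, so that further copies of a gene may lie outside its sum. The symbols described next, 12 of the largest falls and 11 of the largest rises with a mean of at least 100 in the higher stage, were chosen after their values were seen.

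At this level 24 of the 134 falls reached 0 in all 4-cell libraries. The complete losses among the falls named here were of *dnajc30*, *ube2g2*, *crem* and *csrp2*. In turn they encode a mitochondrial J-domain protein, a ubiquitin-conjugating enzyme of endoplasmic reticulum quality control, a cAMP-responsive transcription factor and a LIM domain protein. The *ube2g2* transcript held 138, 137 and 138 normalised counts in the 1-cell libraries and 0 in all 3 of the 4-cell stage, at least 129-fold lower (adjusted p = 6.6e-06). *crem* held 125, 145 and 133 counts and then 0, and *csrp2* held 118, 145 and 138 and then 0. None of these symbols has another model in the table, except *dnajc30* with 2. The sum for *hnrnph2*, a splicing regulator, went from 429, 331 and 395 counts to 1.72, 2.1 and 0, a log2 fold change of -7.97 (SE 0.33, adjusted p = 3.03e-07). The sum for *actb*, cytoplasmic beta-actin, went from 175, 182 and 203 counts to 3.45, 4.2 and 0, a log2 fold change of -5.99 (SE 0.36, adjusted p = 4.32e-06), over 2 models that were both lower. In each of these symbols the lowest 1-cell library stood at least 100 counts above the highest 4-cell library. The others were *echdc2*, *nova1* (a neuronal splicing factor), *tbrg4* (a mitochondrial RNA-binding protein), *helq* (a DNA repair helicase), *tbata* and *usp28* (a deubiquitinase), with log2 fold changes from -8.35 in *echdc2* to -4.27 in *usp28*.

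The gains of symbol sums named here were smaller and did not start from 0. *trim17*, a ubiquitin ligase, rose from 46.4, 104 and 66.5 to 421, 492 and 465, a log2 fold change of 2.70 (SE 0.24, adjusted p = 8.54e-05). *dusp1*, the phosphatase that switches off MAP kinases and is an immediate-early gene in many cells, rose from 46.4, 26.3 and 25.2 to 183, 208 and 298, a log2 fold change of 2.77 (SE 0.27, adjusted p = 0.000169). Its 2 models crossed: one went from 40.8, 26.3 and 25.2 counts to 0 (adjusted p = 0.0134, not called) and the other from 5.63, 0 and 0 to the counts just given (adjusted p = 0.00745). In both symbols every 4-cell library lay above every 1-cell library by more than the spread within either stage. The other named gains were *ecm1* (an extracellular matrix protein), *adgrf1* (an adhesion receptor), *pwp1* (a chromatin and ribosome biogenesis factor), *hhipl1*, *nod1* (an innate immune sensor), *htr5a* (a serotonin receptor), *sqor* (a sulphide-oxidising enzyme of mitochondria), *hif3a* (a hypoxia-inducible factor) and *faah* (an enzyme that degrades fatty acid amides), with log2 fold changes from 1.70 in *faah* to 3.10 in *ecm1*.

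**Figure D3:**
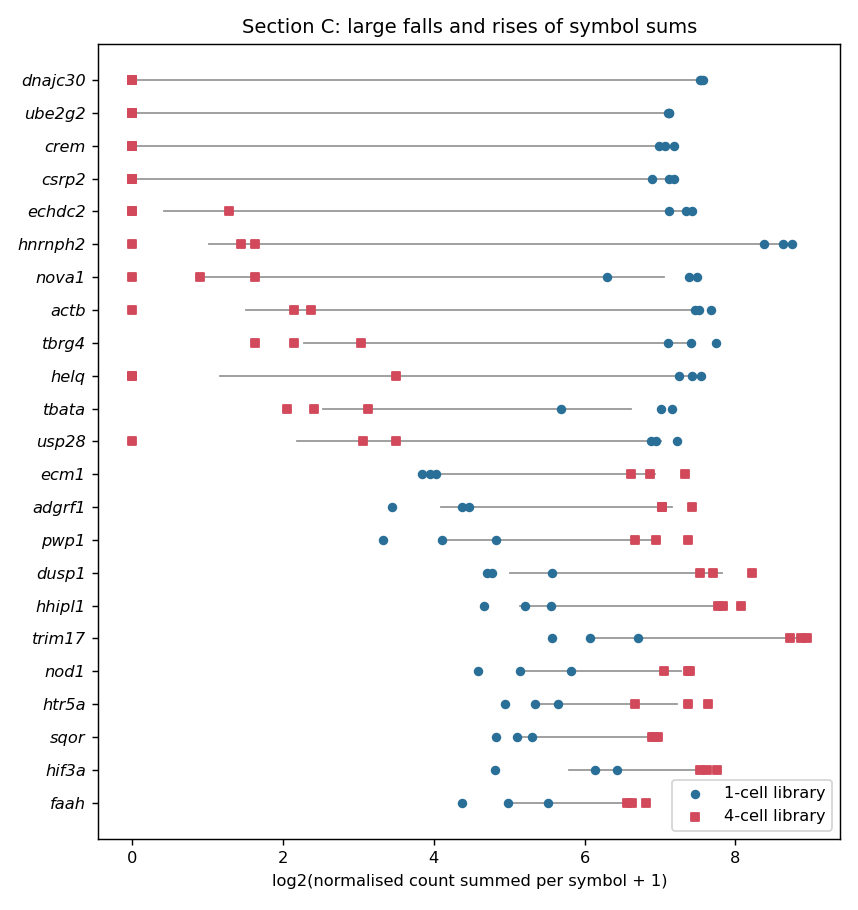
Counts summed per symbol in each library of section C, as log2(normalised count + 1), for 12 of the largest falls and 11 of the largest rises with a mean of at least 100 in the higher stage, with blue circles for 1-cell and red squares for 4-cell libraries and a grey line between the means. No symbol has a library of one stage inside the range of the other, and *dnajc30*, *ube2g2*, *crem* and *csrp2* lie at 0 in all 4-cell libraries.

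More moderate changes of abundant RNAs were seen as well. The largest gain in counts was of *hist2h4a*, which encodes the core histone H4, from 6178, 7074 and 6182 counts to 12679.9, 12439 and 16583, a log2 fold change of 1.10 (SE 0.12, adjusted p = 0.000385 over symbols). The same single model had an adjusted p of 0.024 over all transcripts and was not called there. *trim69* fell from 798, 887 and 976 counts to 428, 330.4 and 344, and *ddx19b*, an RNA helicase of mRNA export, from 768, 888 and 981 to 486, 315 and 292. *hspa8* fell from 721, 676 and 645 counts to 379.8, 399.7 and 377. *rhoc*, a small GTPase of actin control, fell from 291, 293 and 253 counts to 35.3, 46.2 and 56.1. *sys1*, a Golgi membrane protein, fell from 184, 265 and 245 counts to 44.8, 13.6 and 40.3, a log2 fold change of the sum of -2.81 (SE 0.32, adjusted p = 0.00045), although its transcript, the only model, had an adjusted p of 0.0144 over all transcripts. *cdo1*, cysteine dioxygenase, rose from 166, 181 and 221 counts to 404, 364 and 397, and *gatm*, an enzyme of creatine synthesis, from 159.7, 165 and 162 to 328, 325 and 302.

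Gene groups were counted by the sum of each member, and their counts are read beside 1.46% lower and 0.685% higher of all sums. The lists are selected members and not whole families, so that the counts hold for the listed members only. Among the sums called lower, those of *coro6*, *rhoc*, *rpl26l1* and *dnajc30* belong to symbols outside the lists. Of 50 measured actin and actin-binding genes, only *actb* passed the test, and of 57 cell cycle regulators only *ccnd3*, a G1 cyclin, which fell from 209.7, 173 and 188 counts to 97.3, 75.5 and 73.4. Of 73 cytosolic ribosomal proteins only *rps2* was called, lower at 60.3, 30.4 and 48.9 counts after 171, 213 and 234. In the 75 measured genes of poly(A) tail control and mRNA decay, *ythdf3*, a reader of N6-methyladenosine, fell from a mean of 590.2 to 348, and *dcp1b*, a decapping factor, rose from 177 to 322. The tubulin, kinesin and dynein list had 1 fall in 41, *dctn2*, and the chaperone list 1 fall in 51, *hspa8*. The proteasome and ubiquitin ligase list had 1 fall in 77, *psme4*, a proteasome activator that went from a mean of 409.6 to 219. The Wnt list had 2 falls in 47, *wnt4*, a ligand, and *tnik*, a kinase, and the translation factor list 1 fall in 48, *eif6*, from a mean of 37.2 to 0.35. Of 69 oxidative phosphorylation subunits only *ndufs5* passed, higher at a mean of 63.2 after 9.06, and of 39 genes of calcium signalling and egg activation only *plcb1*, a phospholipase, from 3.86 to 42.1. The immediate-early and stress list had 1 rise, *dusp1*, and 1 fall, *hspa8*, in 30. The list for endoplasmic reticulum export and Rab proteins had 1 fall, *sys1*, and 1 rise in 105, of *sec24d*, a coat protein subunit, from a mean of 20.4 to 79.2. In 46 lipid genes *hmgcs1*, a sterol synthesis enzyme, rose from a mean of 117 to 247, and *acacb*, an acetyl-CoA carboxylase, fell from 192 to 102. The called sums of *ccnd3*, *ythdf3*, *dcp1b*, *psme4*, *wnt4*, *eif6*, *ndufs5*, *plcb1*, *sys1* and *hmgcs1* each hold a single model. None of these models was called in the fit over all transcripts. No sum passed in the lists for oocyte factors and the egg coat (17 measured), DNA replication (43), histones and their chaperones (27), chromatin modifiers (75) or basal transcription (63). The same held for the spliceosome and hnRNPs (75), BMP and nodal signalling (31), nucleoporins (58), glycolysis and the citrate cycle (30) and cell adhesion and extracellular matrix (46). The sums of *hist2h4a*, *hnrnph2* and *ecm1* were called, but these symbols are not members of the histone, spliceosome and adhesion lists. The median log2 fold changes of these lists lay between -0.19 for chromatin modifiers and 0.01 for basal transcription and for BMP and nodal signalling. Over all sums above 20 normalised counts the median was -0.05. Called models in these lists, such as *kat7* (a histone acetyltransferase), *mcm2* (a replicative helicase subunit) and *nap1l4* (a histone chaperone), were single models of symbols whose sums did not pass.

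Partial shifts between models were seen in a few further symbols. *wee2*, the oocyte kinase that inhibits CDK1, had its main model at 959.8, 1051 and 1111 counts in 1-cell embryos, then 512, 569.6 and 549.7 in 4-cell embryos, a log2 fold change of -0.94 (SE 0.11, adjusted p = 0.00668), the smallest fold among the called falls. Its 2 models together went from 1049 to 829.7. *epcam*, an epithelial adhesion molecule, had 1 model at 709, 811 and 844 counts that fell to 361, 309 and 361 and another that rose from a mean of 1.47 to 288, and its sum went from 832 to 666. *rac1*, a small GTPase, showed the same, with 1 model at 172, 219 and 227 counts that rose to 518, 499 and 563, another that fell from a mean of 409.6 to 33.9, and sums of 616 and 561. In the splicing gene *prpf31* the main model rose with a log2 fold change of 1.21, while the sum went from 489.6 to 641. In *ddx5*, an RNA helicase of splicing, one model rose from a mean of 181 to 467, another fell from 462 to 37.9, and the sums were 1068 and 924.

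RNAs of the vegetal pole were next followed in section C. By the deposited labels section C lies above the vegetal sections, and over the 29 libraries of the 1-cell and 4-cell stages normalised together *nanos1*, a translational repressor of germ cells, had means of 40.8, 37.1, 65.4, 572 and 11153 in sections A to E at the 1-cell stage. In section C itself *nanos1* rose from 66.1, 78.8 and 72.8 counts to 165, 131 and 144, a log2 fold change of 1.01 (SE 0.18). Its adjusted p was 0.0259 over all transcripts and 0.00634 over symbol sums. For this single model the sum holds the same counts, tested in a separate fit with its own variance estimates and among fewer features. The sum of *ddx4*, the RNA helicase vasa, rose from 176, 169 and 166 counts to 329, 280.1 and 338 (adjusted p = 0.0038 over sums). It covers 2 models, neither of them called on its own, and values of *ddx4* in the other sections are not given here. *nanos1* and *ddx4* were the only members with a called sum among the 27 measured germ plasm and germ-line genes. The median log2 fold change of this list was 0.05. Of *grip2*, the most abundant of 3 models held 26.0, 8.76 and 10.8 counts and then 49.9, 26.2 and 34.5, with a log2 fold change of 1.26 (SE 0.52, adjusted p = 0.306). Another of its models went the other way, to 0 in every 4-cell library, and the sum was 36.1 and 49.0 (adjusted p = 0.528 over sums). *kiaa1324l* went from a mean of 14.6 to 46.2 (adjusted p = 0.136) and *gng7*, a G protein subunit, from 29.4 to 44.8 (adjusted p = 0.406). *dnd1*, an RNA-binding protein of germ cells, held 35.2, 94.1 and 74.6 counts and then 121, 62.9 and 66.2, an overlap of both stages. *rbpms2* held a mean of 287 and then 302, again with overlap. The libraries of both stages did not overlap in 4 of these 6 RNAs, *nanos1*, *grip2*, *kiaa1324l* and *gng7*. All 4 were higher at the 4-cell stage, but *grip2* was separated by less than 1 count. Such a separation was also seen in 27.1% of the 20969 transcripts above 20 normalised counts. None of the 4 models was called over all transcripts, and the 6 RNAs were chosen with earlier results of these data known.

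Over the same interval the means of these 6 RNAs were lower in section E, where *rbpms2* alone was called (adjusted p = 0.00741, beside 0.166% of all transcripts called lower there) and the adjusted p of the others ran from 0.0623 in *dnd1* to 0.252 in *kiaa1324l*. In the joint normalisation *nanos1* went from 11153 (7003 to 15347 in single libraries) to 2491 (1202 to 3476) in section E, from 572 to 526 in section D and from 65.4 to 133 in section C. The same *grip2* model went from 12548 to 3683 in E and from 13.7 to 33.5 in C, and *gng7* from 7496 to 1853 in E and from 26.5 to 40.6 in C. At the later stages section C held more of several of them still. With the 12 section C libraries normalised together, *nanos1* was at 73.7, 87.4 and 81.0 counts at the 1-cell stage, 182, 145 and 160.1 at the 4-cell stage, 325, 236 and 215 at the 64-cell stage, and lastly 331, 282 and 274 at the 1K-cell stage. *dnd1* was at 134 to 190.0 counts at the 64-cell stage and 202 to 234 at the 1K-cell stage, in every library above each 1-cell library. The order for *nanos1*, *gng7* and *kiaa1324l* was the same, 1-cell below 4-cell below 64-cell, and the 64-cell and 1K-cell libraries overlapped in all 3. These later values are a description without a test.

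**Figure D4:**
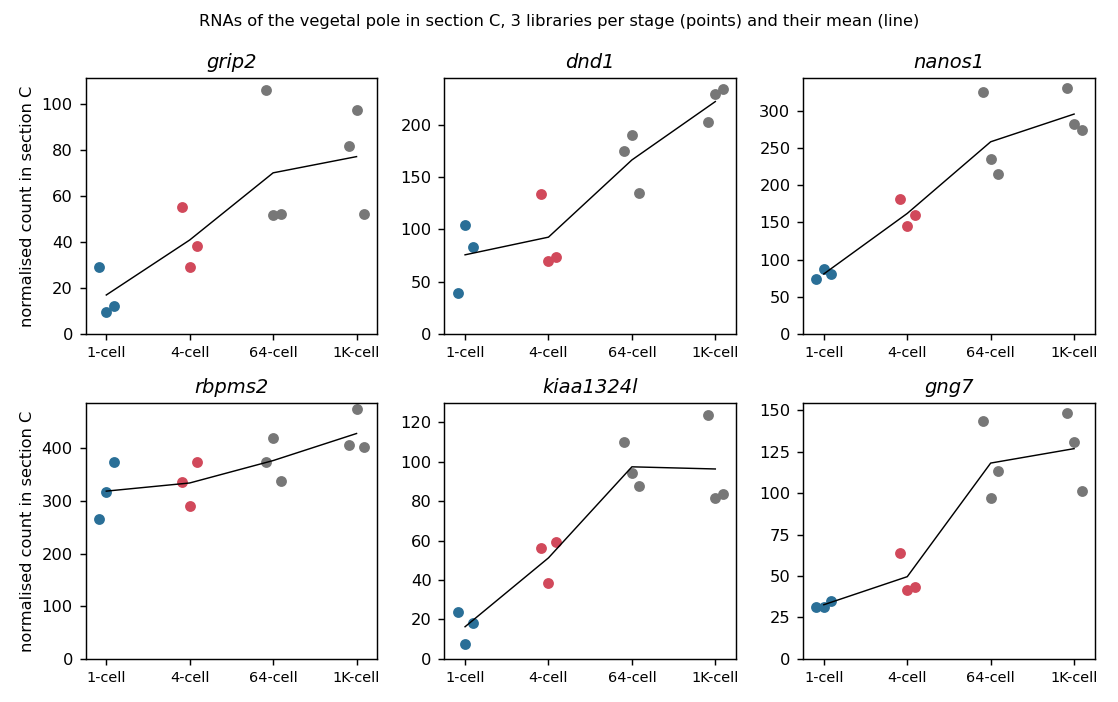
Normalised counts of 6 RNAs of the vegetal pole in section C at the 1-cell, 4-cell, 64-cell and 1K-cell stages, over 12 libraries normalised together, with a point per library and a line through the means. *nanos1* goes from 73.7 to 87.4 counts in 1-cell libraries to 274 to 331 in 1K-cell libraries, while 1-cell and 4-cell libraries overlap in *dnd1* and *rbpms2*.

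The genes of the animal hemisphere that were followed alongside did not pass the test in section C. *akt2*, a protein kinase, held means of 822 and 714, *birc6*, a giant ubiquitin ligase, 1142 and 973, *gldc*, a glycine decarboxylase subunit, 694 and 707, *znf292* 1193 and 1238, and *huwe1*, a ubiquitin ligase, 359 and 275 (adjusted p from 0.236 to 1.00). *ankhd1* spread widely, at 42.2, 101 and 146 counts and then 194, 133 and 0. Of 4 further genes of interest for localisation in this egg, none had a called model. *plin2*, a lipid droplet protein, was near level at sums of 798 and 800.0, and *rpl12* at 89.3 and 93.0. The sums of *sh3bp4* were 174 and then 124, and those of *prmt1*, an arginine methyltransferase, 1162 and then 979.7. One *prmt1* model went from 0, 0 and 3.6 counts to 102, 95.5 and 107 with an adjusted p of 0.0125.

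The stage difference of section C was then set beside that of the other sections of the same embryos. These sections are slabs of the same animals, so that they do not replicate the comparison. Sections A and B gave 411 falls and 193 rises (1.42% and 0.668%) and 334 falls and 153 rises (1.16% and 0.529%), and section E gave 48 and 22 (0.166% and 0.0761%). Section D, with 2 libraries at the 1-cell stage, gave 0 of each in edgeR's quasi-likelihood test, with 4424 transcripts at an unadjusted p under 0.05 and a smallest adjusted p of 0.0101. No other tool was run on D. Of the 298 falls in C, 222 were also called lower in A, which is 74.5% of those in C and 54% of those in A, 202 in B (67.8% and 60.5%) and 33 in E (11.1% and 68.8%). Of the 139 rises, 100 were also called in A (71.9% and 51.8%) 90 in B (64.7% and 58.8%) and 19 in E (13.7% and 86.4%). The median log2 fold change of the 298 transcripts was -7.94 in C, where they were chosen, and -6.56, -6.68, -6.63 and -6.62 in A, B, D and E. For the 139 rises it was 5.81 in C and 4.33, 4.05, 4.08 and 4.29 in A, B, D and E.

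No transcript passed the test for a stage difference in section C that differed from the mean of the other 4 sections, in an edgeR fit over 29 libraries that included the embryo. Without 1-cell replicate 1, 2 or 3 there were 2, 1 and 1, and 0 without any 4-cell replicate. At an unadjusted p under 0.05 there were 937, and the smallest adjusted p was 0.0484, in *shcbp1*. Against the animal sections A and B there were 0 as well, with 814 at an unadjusted p under 0.05 and a smallest adjusted p of 0.673, and with 3, 0 and 1 without 1-cell replicate 1, 2 or 3 and 0, 1 and 0 without 4-cell replicate 1, 2 or 3. DESeq2 was not run on these differences. Many transcripts at 0 counts in all libraries of a stage in several sections had a fitted difference without a usable error, so that these tests say little about the complete losses. Among the called transcripts with a symbol the smallest unadjusted p against the other sections were those of *actb* (0.00024), *selenon* (0.00028), *luc7l2*, *clk3*, *tsc1*, *ccna1*, *nap1l4* and *rplp1*, none past the adjusted threshold. In *clk3*, a kinase of splicing factors, a model went from 107, 87.6 and 57.5 counts to 0 in section C, with log2 fold changes of -0.41, 1.22, 3.36 and -0.07 in A, B, D and E.

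Against the vegetal sections D and E, 33 transcripts had a different stage difference in section C (0.114% of 28909), and 23 of them had a symbol. In 31 the stage difference was higher in C than in D and E, by a median of 1.36 on the log2 scale. Only 2 of the 33 were called in section C itself, and they were not among these 31. Some of the 31 fell in C, such as *pias2*, from a mean of 64.3 to 37.7, but less than in D and E together. Of the 31, 30 had a higher mean in section E than in section C at the 1-cell stage, each section normalised on its own. The share over all transcripts is not given here. Over the 31, the median log2 fold change was 0.06, 0.07, 0.41, -0.53 and -1.28 in sections A to E. The order of C above D and E follows from how the 31 were chosen. In *rest*, a repressor of neuronal genes, one model held 238 and 262 counts in C and had log2 fold changes of 0.14 in C, -0.73 in D and -1.18 in E, a difference of 1.19 (SE 0.11, adjusted p = 5.47e-05). The other model of *rest* rose in section C from 9.15, 5.47 and 18.9 counts to 252, 211 and 230.2 (adjusted p = 0.00355), and the sum rose from 249.5 to 493 (adjusted p = 0.00239 over sums). Values of this other model in D and E are not given here, and differences between sections were not tested on symbol sums. In *scd*, a fatty acid desaturase, the log2 fold change was 1.11 in C, 0.07 in D and -1.23 in E, a difference of 1.82 (SE 0.25, adjusted p = 0.00219). Among the vegetal RNAs followed above, *rbpms2* (difference 1.26, SE 0.18, adjusted p = 0.00303) and *kiaa1324l* (difference 2.25, adjusted p = 0.0065) were in the set. *gng7* (adjusted p = 0.0102), *grip2* (0.0366), *nanos1* (0.0572) and *dnd1* (0.121) were not, with differences of 2.09, 2.33, 2.21 and 1.59 in the same direction. The 2 transcripts with a lower stage difference in C than in D and E, both without a symbol, rose in all 5 sections, from 0 counts in section E. Leaving out 1 of the 6 embryos at a time gave 7, 12 and 15 transcripts without 1-cell replicate 1, 2 or 3, and 8, 14 and 15 without 4-cell replicate 1, 2 or 3.

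**Figure D5:**
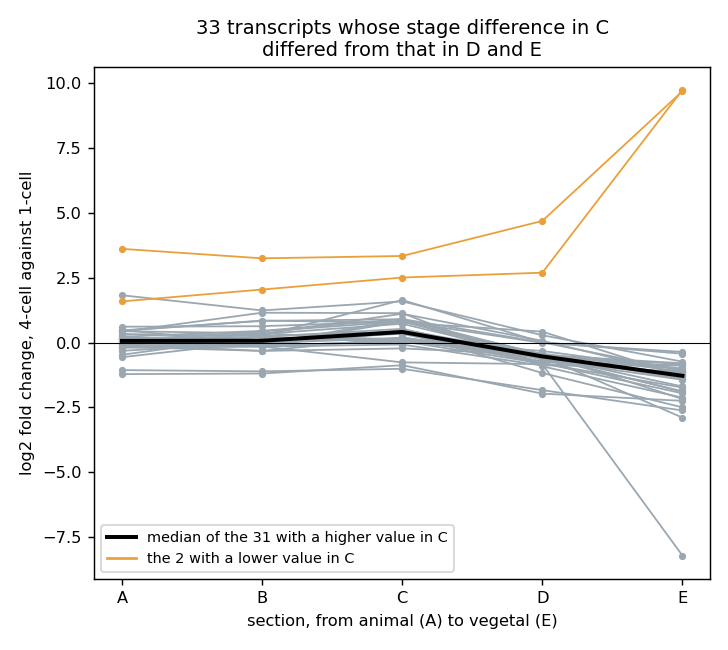
Fitted log2 fold change from the 1-cell to the 4-cell stage in sections A to E of the 33 transcripts whose stage difference in section C differed from that in D and E, with 1 line per transcript. The median of the 31 with a higher stage difference in C than in D and E (black) is 0.41 in C and -1.28 in E, and the 2 others (orange) rise in every section.

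The new levels of section C mostly held through later cleavages. With the same 1-cell libraries as reference, 276 of the 298 falls were still more than 3-fold below their 1-cell mean at the 64-cell stage and 274 at the 1K-cell stage. Of the 142 that had no count at the 4-cell stage, 87 had none in any 64-cell library and 77 none in any 1K-cell library, and 59 were at 0 in all 6. A count in every library was regained by 6 at the 64-cell stage and by 8 at the 1K-cell stage. Of the 139 rises, 137 held more than 0.5 times their 4-cell mean at the 64-cell stage and 136 at the 1K-cell stage, and none exceeded it by more than 2 times at the latter. Among the symbol sums, *ube2g2* and *dnajc30* had means of 0 at both later stages, *actb* was at 5.68 and 21.5 counts, *trim17* at 469 and 552, and *dusp1* at 302 and 266. In *clk3*, by contrast, the model at 0 in 4-cell libraries held 38.4, 75.1 and 37.9 counts at the 64-cell stage and 107, 70.9 and 49.7 in 1K-cell libraries. The *rplp1* model varied between libraries, with 174, 0 and 7.57 counts at the former stage and 0, 116 and 148 at the latter.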

How the data were processed

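Total RNA of each section was depleted of ribosomal RNA by the authors, made into strand-specific libraries, trimmed with Trimmomatic and assigned to transcripts by kallisto (0.43.1 per the submitters' processing notes), after ribosomal and mitochondrial reads were taken out. The deposited table holds estimated counts from the authors' pseudo-alignment, all whole numbers, for transcripts above 30 counts in at least 1 library. Human symbols are the authors' orthology calls. Other deposited tables derive from these counts and were not used. The library that the labels call an outlier, section D of 1-cell replicate 3, was not analysed here.

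Stages were compared in section C with edgeR 4.0.16 (R 4.3.3, limma 3.58.1), by the quasi-likelihood test on counts with median-of-ratios size factors and Benjamini-Hochberg adjustment over 28909 transcripts. Every adjusted p is from this tool. A normalised count is a count divided by its library's size factor. The SE of a log2 fold change is its size divided by the square root of the test's F statistic, and not a spread between embryos. Symbol sums were tested in the same way, in a separate fit over 9194 symbols. Differences between sections were tested on single models, with terms for embryo, section and section by stage. DESeq2 1.42.0, TMM, filterByExpr, a replicate block and other settings were alternatives. A ratio of means against 0 sets 3 counts over the group in its place. Log2 fold changes are edgeR's fitted values, which do not use this replacement and can be larger where a stage is at 0. In *dnajc30* the ratio was 174 and the log2 fold change -10.6. Depth was 2362555 to 4770618 counts per library of section C, so that transcripts at a few counts carry little information.

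Transcripts were named by a rule: the 15 largest falls and rises with a symbol and 2 of each without, with at least 100 normalised counts in the higher stage and no overlap; 6 symbols with a fall and a rise; 4 called members per list by smallest adjusted p; genes named by the study; and 8 by the smallest p against other sections. A list is read over all its measured members, and a long list names fewer. Lists and members were chosen with earlier results of these data known. The fitting steps were also run on simulated counts with known changes, none of them a complete loss or a gain from nothing, so that such changes were not covered. The result for 1 symbol is not reported here.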

Additional observations from a re-analysis of the deposited data

Results flagged for a closer look

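The stage difference of section C differed from that of the vegetal sections D and E in 33 transcripts by a test of the difference itself. In *rbpms2*, an RNA-binding protein, transcript AMEXTC_0340000038222 had a difference of 1.26 on the log2 scale, as its mean in section C was 287 and 302 normalised counts at the 1-cell and 4-cell stages while section E went from 1411 to 437, each section normalised on its own.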

How the results depend on the processing

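The size of the lists depended on the fit. For falls and rises of transcripts, and for those at least 3-fold, DESeq2 called 1226 and 864, with 856 and 431 at least 3-fold, a fit over all libraries 672 and 708, with 512 and 403, and an adjusted p under 0.05 gave 818 and 482, with 687 and 313. For symbol sums DESeq2 called 208 falls and 109 rises, and an adjusted p under 0.05 gave 281 and 156. TMM, size factors over all libraries, filterByExpr and no minimum level kept every count that they could change within 1.5 times of its main value. Against the vegetal sections 9 transcripts were called without a term for embryo and 70 at an adjusted p under 0.05, which also called 1 against the other sections. Leaving out 1 library or embryo gave 8 to 153 falls and 11 to 39 rises, 8 to 149 and 11 to 38 at least 3-fold, 69 to 101 and 28 to 45 symbol sums, and 0 to 2, 0 to 3 and 7 to 15 transcripts that differed from the other, animal and vegetal sections.

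With the replicate number as a block, edgeR's quasi-likelihood test called 0 falls and 0 rises, at least 3-fold 0 and 0, with 3633 transcripts at an unadjusted p under 0.05 and a smallest adjusted p of 0.0192, and 73 falls and 33 rises of symbol sums. Same-numbered embryos of the 2 stages are different animals. Their deviations from the stage means correlated at -0.04, -0.01 and -0.05 for numbers 1, 2 and 3, beside -0.06 to 0.11 for unlike numbers, with 0 numbers whose libraries correlated best with each other. Whether embryos of 1 number share parents or an experiment was not tested, and the labels do not say.

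Of the 57 named transcripts with a call, none changed direction under any alternative run, and all kept the call under TMM, size factors over all libraries, DESeq2 and filterByExpr, 51 under 1 fit over all libraries, 0 under the block, and 3 to 35 when a single library was left out. With 3 embryos per stage and up to 4770618 counts per library, small changes of transcripts at a few counts were not detectable, and parents and stage cannot be told apart.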
